A study of Caenorhabditis elegans with 4 samples.

Results

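The 167 mRNAs described here are the unnamed mRNAs of Caenorhabditis elegans that fell under a fixed level of IP enrichment when CeLIN41 was immunoprecipitated. Unnamed means that the WormBase symbol of the gene is only its sequence name, such as Y37E3.8, which gives the sequenced clone and a number. Of the 20392 genes in the files 8363 are unnamed, and the 167 were selected on their measured IP enrichment, which had to be at most -1.5 on the log2 scale in both replicates. IP enrichment is the difference in normalized log2 value between the immunoprecipitate (IP) and its own input, so that -1.5 or less means at least 2.83-fold less of the mRNA in the IP, relative to the other mRNAs. Because the IP and input values chose these mRNAs, their depletion is a description and no test of it is given.

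LIN-41 is a TRIM-NHL protein, whose NHL domain binds RNA, and in worms it is known for repressing mRNAs that drive the juvenile-to-adult transition and for its role in oocytes. In RIP-seq a protein is recovered from a lysate together with the RNA that is bound to it, and this RNA is sequenced beside that of the whole lysate. An mRNA that is depleted has a smaller share of the IP than of the input, which does not say that none of it was bound. A share can also be lower only because that of other mRNAs is higher.

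Whole young adult worms gave 4 libraries, Input and LIN-41_IP of replicates 1 and 2, which are biological replicates grown in different weeks. All worms had the genotype lin-41(rrr3) I with the transgene rrrSi367 II. In this single-copy rescuing transgene, which carries unc-119(+), the lin-41 promoter drives LIN-41 fused to FLAG, GFP and a TEV site, and the 3′-UTR is that of lin-41 in full length. Both groups therefore shared the mutation and the tagged protein. The Input libraries came from the lysate and the LIN-41_IP libraries from beads that bind the FLAG tag. Mock IP libraries were not analysed here, so that binding to beads or tags cannot be told apart from binding to CeLIN41, and in whole worms fewer cells that hold both an mRNA and CeLIN41 cannot be told apart from less bound RNA per cell. The libraries held 33455857 to 40743247 counts, and with n = 2 per group the SD rests on 2 values.

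The 167 mRNAs were together 2.65% and 2.57% of the counts in the inputs of replicates 1 and 2. In the IPs they were 0.566% and 0.412%, which is 4.68-fold and 6.23-fold lower. The shares did not rest on the most abundant mRNA: without Y37E3.8 they were 2.35% and 2.27% of the input and 0.523% and 0.385% of the IP counts. The median mRNA of the set had 1504 and 1947 input counts, compared with 319 and 239 in the IPs. All 167 genes are annotated as protein coding.

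Mean IP enrichment ran from -3.31 to -1.51, with a median of -1.89. In the normalized values this corresponds to folds from 9.93 to 2.85 and a median of 3.70. Mean enrichment was at most -2 for 60 mRNAs and at most -2.5 for 10 of these, and lay between -2 and the threshold for the other 107. Both IP values were below both input values for 167 of the 167 mRNAs, as they were for 43.4% of the 14029 genes that passed the filter on low counts. All 167 passed this filter and were called depleted by edgeR's quasi-likelihood test at an adjusted p threshold of 0.05, which called 35.4% of the genes tested. The thresholds themselves were met by 3.57% of all genes, named ones included, and a limit of -2 in both replicates by 46 of the 167 mRNAs and 1.2% of all genes. The rule used the same contrast, so none of these counts says anything further about the set.

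The SD between replicates had a median of 0.12 over the 167 mRNAs and was at most 0.54. Enrichment was lower in replicate 2 for 120 of them, or 71.9%, compared with 52.9% of the genes tested. The medians were -1.83 in replicate 1 and -1.95 in replicate 2. The size of the difference between replicates had a median of 0.18, close to the 0.20 of the genes tested. It was above 0.5 for 7 mRNAs. Both replicates had to meet the threshold, so the selection bears on this size and on the SD, and the comparison is a description. The 3 with the largest difference were C08E8.4 (-1.90 and -2.66), F47B8.8 (-1.62 and -2.36) and F22H10.2 (-2.15 and -2.87), all lower in replicate 2.

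**Figure D1:**
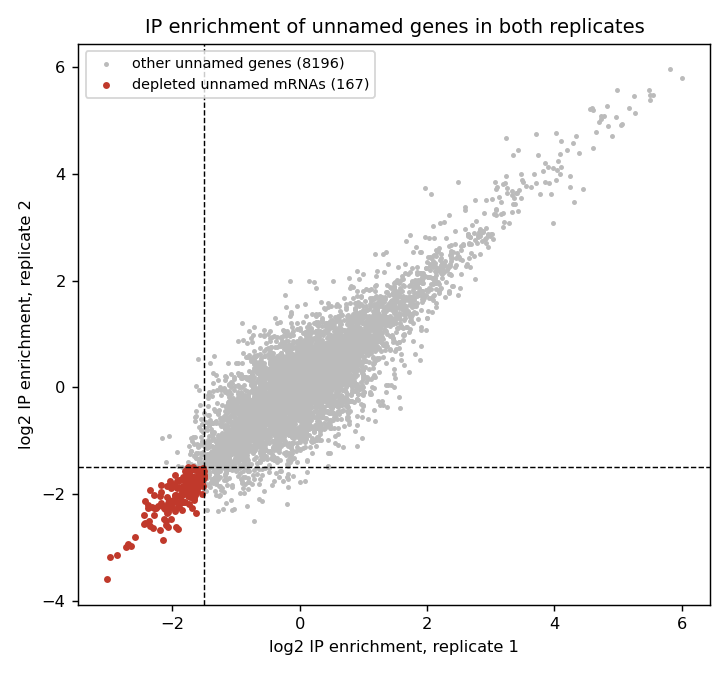
Log2 IP enrichment of unnamed genes in replicate 1 (horizontal axis) and replicate 2 (vertical axis), with 1 point per gene and dashed lines at the threshold of -1.5. The 167 depleted mRNAs (red) fill the lower left corner that the rule defines, and 120 of them were lower in replicate 2.

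The lowest IP enrichment belonged to Y37E3.8 (WBGene00021350, chromosome I), at -3.31 ± 0.41 (SD, n = 2). It had 98335 and 116409 input counts and 16860 and 11067 IP counts. On the normalized log2 scale the inputs were 16.99 and 17.03, and the IPs 13.97 and 13.43. It was also the most abundant mRNA of the set for its length, at 5921 RPKM in the inputs (counts per kilobase of gene model, scaled to library size in the usual way, mean of n = 2), and at 698 RPKM in the IPs. RefSeq now lists this gene as rpl-27A, a protein of the large ribosomal subunit. The set is therefore unnamed only by the symbols used here. The place of Y37E3.8 as the lowest mRNA changed with the normalization: with TMM factors it was at -2.19, which is 4.55-fold lower in the IP, and ranked number 32 of the 167.

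The next 3 mRNAs were also highly expressed. Y105C5B.5 (WBGene00013647, chromosome IV) had 9874 and 10346 input counts and 1272 and 828 IP counts, an enrichment of -3.07 ± 0.14. F23D12.11 (WBGene00194674, chromosome X) had 8556 and 9860 input counts and 1179 and 816 IP counts, at -3.005 ± 0.19. F54C9.3 (WBGene00010041, chromosome II) had 5636 and 7062 input counts and 791 and 604 IP counts, at -2.86 ± 0.18. In each, the lower IP value was that of replicate 2. What these 3 genes encode is not annotated in the sources used here.

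F22H10.3 (chromosome X) followed at -2.83 ± 0.19, with 8634 and 10372 input counts and 1371 and 986 IP counts. T28F4.5 (chromosome I), which RefSeq now lists as dap-1, was at -2.82 ± 0.18, with 24161 and 24574 input counts and 3933 and 2574 IP counts. C35B1.5 (chromosome IV) was at -2.81 ± 0.23, with 7339 and 9254 input counts and 1173 and 862 IP counts. These enrichments differ from each other by less than their SDs, so the order among the 3 is not resolved.

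F53A9.8 (chromosome X) was at -2.70 ± 0.16 with 11237 and 9279 input counts and 1962 and 997 IP counts. The remaining 4 of the 12 lowest mRNAs lay close together. They were F22H10.2 (chromosome X) at -2.51 ± 0.51, T02H6.11 (chromosome II) at -2.51 ± 0.08, F48D6.4 (chromosome X) at -2.49 ± 0.08 and F13H10.6 (chromosome IV) at -2.47 ± 0.17. F22H10.2 had far fewer counts than T02H6.11 or F48D6.4, with 880 and 1550 in the inputs. Its inputs differed on the normalized log2 scale, at 9.54 and 10.27, while its IPs were nearly equal at 7.39 and 7.40. Among these 12, 11 had a gene model under 600 bases, 5 lay on chromosome X, 4 had a single exon and 12 had the lower enrichment in replicate 2. In the whole set the median length was 868 bases, 23.4% lay on X, 8.38% had a single exon and 71.9% were lower in replicate 2. The 12 were ranked after quantile normalization. With TMM factors some of the 12 lowest were longer, such as Y39G8B.1 and R03A10.5 with 1282 and 1311 bases.

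**Figure D2:**
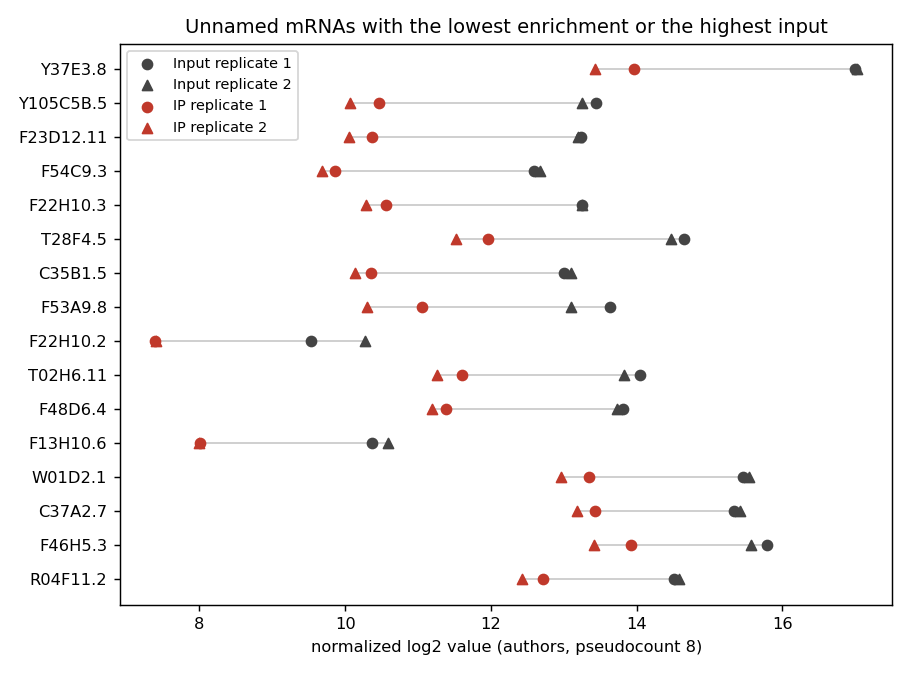
Normalized log2 values in each of the 4 libraries for the 12 mRNAs with the lowest IP enrichment and the 6 with the highest input (16 mRNAs, since 2 are in both groups), with inputs in black, IPs in red, circles for replicate 1 and triangles for replicate 2. Every red symbol lies left of both black symbols of its row. Both IPs were below both inputs for all 167 mRNAs and for 43.4% of the genes tested. The longest line, for Y37E3.8, runs from 17.03 down to 13.43.

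The 6 mRNAs with the highest input values were Y37E3.8, F46H5.3, W01D2.1, C37A2.7, T28F4.5 and R04F11.2. F46H5.3 (WBGene00018519, chromosome X) had 58720 and 54823 input counts and 16156 and 10979 IP counts, at an enrichment of -2.01 ± 0.21. W01D2.1 (WBGene00012179, chromosome II) had 43962 and 53646 input counts and 11084 and 7944 IP counts, at -2.35 ± 0.34. C37A2.7 (WBGene00016493, chromosome I) had 40156 and 47986 input counts and 11718 and 9249 IP counts, at -2.08 ± 0.24. R04F11.2 (WBGene00011015, chromosome V) had 21722 and 26479 input counts and 6901 and 5235 IP counts, at -1.98 ± 0.25. In all 6, both IPs were below both inputs, as in all 167 mRNAs and in 43.4% of the genes tested. The IP of replicate 2 was lower than that of replicate 1 in each of the 6.

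RefSeq lists a gene name for 11 of the 167 genes, a comparison that was chosen after the values were seen. Among these, 3 names are of ribosomal proteins: Y37E3.8 is rpl-27A, W01D2.1 is rpl-37.1, another protein of the large subunit, and C37A2.7 is rplp-2.1, an acidic protein of the ribosomal stalk. These were the 3 mRNAs with the highest input levels per length, at 5921, 3392 and 2830 RPKM, and the IPs were at 698, 600 and 610. Among the cytosolic ribosomal protein genes that carry a name in the symbols used here, 78 of 78 tested were called depleted, 73 of 78 met the same thresholds, and their median enrichment was -2.42 (-1.59 with edgeR's TMM scaling). The median of all 14029 genes tested was -0.11 (-0.14 with TMM), and 35.4% of them were called depleted and 5.2% met the thresholds. Among named genes with a mean normalized input of 15 or more, ribosomal protein genes not set apart, 70.9% met the thresholds.

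Whether the other 8 named by RefSeq share a function was not examined, since product names were not used here. F27D4.1 is etfa-1, the alpha subunit of the electron transfer flavoprotein, which carries electrons from mitochondrial dehydrogenases to the respiratory chain. It had 10125 and 10744 input counts and 2594 and 1909 IP counts, at -2.12 ± 0.08. Y62H9A.5, now stha-3, was at -2.29 ± 0.13, and C49F5.7, now spig-15, was at -2.27 ± 0.02. Y48G10A.3, now ndrr-1, was at -2.13 ± 0.30 from 374 and 328 counts in the inputs. Y48A6B.7, now gda-1, and Y48A6B.9, now mecr-2, come from the same clone on chromosome III and were at -1.86 ± 0.03 and -1.84 ± 0.12. T28F4.5, now dap-1, is described above, and Y71H10B.1, now ntfc-1, was at -1.60 ± 0.15. Hence 156 of the 167 genes remain without a gene name in RefSeq.

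The threshold cuts through a continuum. Just inside it were C18B2.3 at -1.75 and -1.5001 in replicates 1 and 2, Y22D7AL.10 at -1.5003 and -1.65, and Y71H10B.1 at -1.501 and -1.71. Just outside it were H35B03.1 at -1.56 and -1.499, F49E2.5 at -1.498 and -1.68, and F29C6.1 at -1.498 and -1.65. The values of these 6 genes next to the threshold differ by less than the spread between replicates, and their place inside or outside the set has no meaning of its own.

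At the other end of abundance, 18 mRNAs had a mean normalized input under 7, 2 of these under 5, and 11 had under 10 counts in at least 1 library. An IP library was without a count for 3 mRNAs. W01B6.6 (chromosome IV) had 33 and 30 counts in the inputs and 0 in both IPs. With a floor of 3 counts per library, scaled to library size, it was at least 12.97-fold lower in the IP of replicate 1 and at least 10.5-fold lower in that of replicate 2. Y59H11AM.1 (chromosome IV) had 86 and 60 input counts and 6 and 0 IP counts, which makes it at least 20.95-fold lower in replicate 2. Y43F8C.11 (chromosome V) had 37 and 31 input counts and 2 and 0 IP counts, at least 10.8-fold lower in replicate 2. With TMM factors in place of library size these bounds fell to 7.07-fold and 5.26-fold for W01B6.6, 10.5-fold for Y59H11AM.1 and 5.44-fold for Y43F8C.11. Their normalized log2 enrichments of -1.90, -2.35 and -1.77 differ from the bounds in both the pseudocount of 8 and the scaling. The floors cover only the counting error of an IP count of 0. Input counts were taken as exact, although they are small, so the bounds are approximate.

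Depleted unnamed mRNAs were more abundant in the input than other unnamed mRNAs. Their mean normalized input had a median of 10.54 and ran from 4.90 to 17.01, while the median of the other 5458 unnamed genes tested was 6.997. Of the unnamed genes with an input between 9 and 11, 4.68% were in the set (48 of 1025), and of those between 11 and 13, 5.57% (38 of 682). Between 13 and 15 the share was 34.4% (31 of 90), and from 15 upwards 4 of the 9 unnamed genes were in it. In the same ranges 6.05%, 7.998%, 27.7% and 70.9% of the named genes met the thresholds. A low input leaves little room below it once 8 is added to each value, and between 3 and 5 only 2 of 3975 unnamed genes met them. Input values enter the rule, so that this relation is a description. Over the 167 mRNAs, mean enrichment and input had a Pearson r of -0.37 and a Spearman rho of -0.32. These are across genes that share the same 4 libraries, and genes are not independent replicates.

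**Figure D3:**
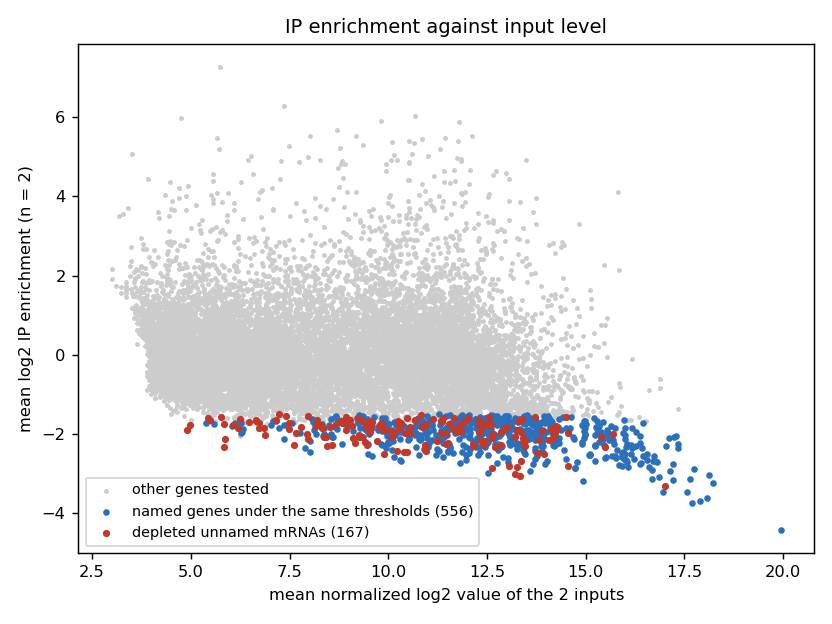
Mean log2 IP enrichment (n = 2) against the mean normalized log2 value of the 2 inputs, for each gene tested. The 167 depleted unnamed mRNAs (red) spread over inputs from 4.90 to 17.01, and the 556 named genes under the same thresholds (blue) reach further to the right.

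The normalization bears on this order. After TMM scaling of the counts without quantile normalization, the median enrichment of the 35 mRNAs with an input of 13 or more was -1.37, compared with -2.08 after quantile normalization. For the 28 mRNAs with an input between 7 and 9 it was -2.10, compared with -1.82. With TMM factors F22H10.2 was the lowest at -2.60, in place of Y37E3.8. The mRNA with the weakest value was K08D12.3 at -0.78, still below 0. With TMM factors 106 of the 167 met the thresholds, and 61 did not, 26 of which had an input of 13 or more. Another 72 unnamed genes met them instead. Thus the sign of the 167 enrichments did not depend on this choice, but which mRNAs were lowest did.

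Gene models were short in the set, a property the rule did not use. The length of the gene model, deposited with the counts, had a median of 868 bases, compared with 1059 for the other unnamed genes tested, 1087 for the 556 named genes under the same thresholds and 1300 for all 13598 coding genes tested. Models under 500 bases made up 25.7% of the set (43 of 167) but 11.9%, 12.1% and 7.54% of the other groups, in the same order. Coding sequences in the annotation had a median of 627 bases, against 870, 830 and 1080. The range was wide: C35C5.9 (chromosome X) had the shortest coding sequence at 120 bases, and F55H12.3 (chromosome I) the longest at 8871 bases over 52 exons. C35C5.9 had 283 and 199 input counts and 45 and 24 IP counts, at -1.56 ± 0.04. F55H12.3 had 395 and 457 input counts and 56 and 53 IP counts, at -1.77 ± 0.06. The 178 unnamed genes that met the thresholds with TMM factors had a median length of 921.5 bases, with 21.9% under 500 bases (an alternative chosen after the data were seen).

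Within the set, the relation of length to depletion depended on the normalization. The 60 mRNAs with a mean enrichment of at most -2 had a median length of 647 bases and the other 107 one of 939 bases. Ranked with TMM factors in place of quantile normalization, the 60 lowest had a median of 831.5 bases and the rest 893. Over the 167, the Spearman rho between enrichment and length was 0.19, it was 0.037 with TMM factors, and it was -0.004 over all genes tested with the normalized values. The difference in length was not tested, and abundance moved with it. Within the same range of input it was smallest at low values and largest at high ones: between 7 and 9 the medians were 1019 bases in the set and 1130.5 in other unnamed genes, between 11 and 13 they were 824 and 1401, and between 13 and 15 they were 567 and 1208.

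The annotated 3′-UTRs were short as well, and genes annotated with a single exon were frequent. An annotated 3′-UTR was found for 144 of the 167 genes, with a median of 100.5 bases, compared with 119 in other unnamed genes and 138 in all coding genes tested. A 3′-UTR over 200 bases was annotated for 15.97% of these 144, compared with 28.3% in other unnamed genes, 26.4% in named genes under the same thresholds and 34.6% in all coding genes tested. The median number of exons was 4, against 5, 4 and 6. Genes of a single exon made up 8.38% of the set (14 of 167), compared with 2.18%, 2.88% and 1.84%. No UTR is annotated for these 14, although their gene models are longer than their coding sequences, such as 2105 and 225 bases for T27E9.2. They are therefore not among the 144, and their annotation may be incomplete. These 14 were also more depleted than the rest, with a median enrichment of -2.25 against -1.87 for the 153 with several exons, and of -2.25 against -1.84 with TMM factors. Of the 14, 11 had a mean enrichment of at most -2, 12 were shorter than 500 bases and 6 lay on chromosome X. These 6 are F53A9.1, F53A9.6, F53A9.7, F53A9.8, F22H10.2 and F22H10.3, all among the 11. They lie in runs of neighbours described below, so their values may not be independent of each other. Enrichment also chose the set, so the difference from genes with several exons is a description.

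**Figure D4:**
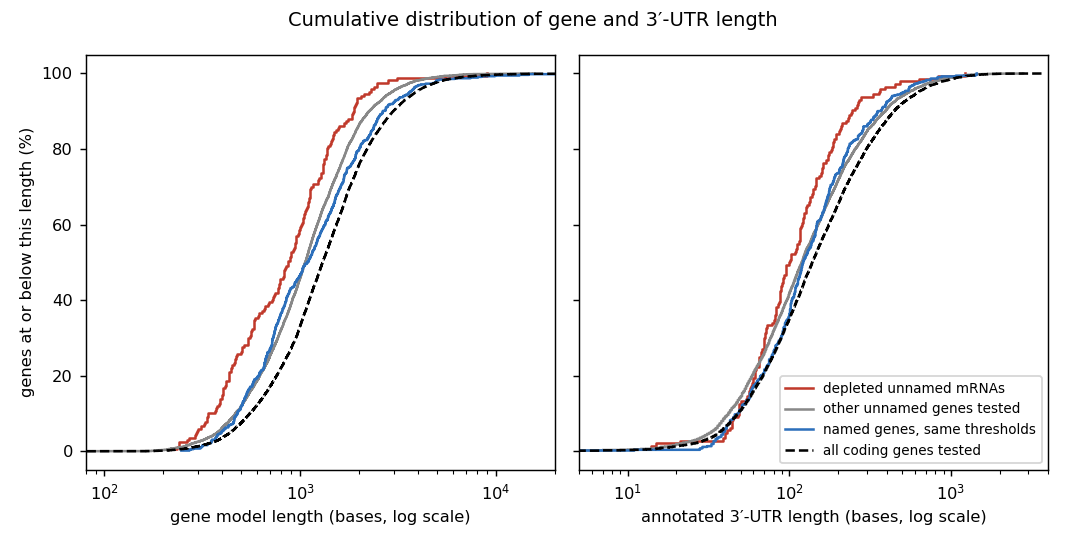
Share of genes (percent, vertical axis) at or below a given gene model length (left) and annotated 3′-UTR length (right), in bases on log axes. The 167 depleted unnamed mRNAs (red) reach 59.3% at 1000 bases, above the 45.8% of other unnamed genes (grey), the 46.8% of named genes under the same thresholds (blue) and the 33.2% of all coding genes tested (dashed).

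Chromosome X held 39 of the 167 genes, or 23.4%, compared with 14.5% of the other unnamed genes tested and 12.2% of the named genes under the same thresholds. As a share of the unnamed genes tested on each chromosome, 4.70% of those on X were in the set, while the 5 autosomes ranged from 2.40% (chromosome II) to 2.87% (chromosome V). Named genes showed another order, with 6.28% on X under the thresholds and 5.71% to 8.55% on the autosomes. Among the 60 mRNAs with a mean enrichment of at most -2, 20 were on X (33.3%), and among the other 107, 19 were (17.8%). Ranked with TMM factors, 18 of the 60 lowest and 21 of the rest (19.6%) were on X. The share on X was 23.2% for the 138 genes whose mean input reached 8, compared with 11.5% of the other unnamed genes tested at that input. Among the 178 unnamed genes that met the thresholds with TMM factors it was 20.8%. Some of the share in the set came from neighbouring genes: without the 12 genes described next it was 18.7%. Neighbours were not removed from the groups it is compared with.

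Of the 167 genes, 12 lay directly beside another member along the chromosome, in 5 runs, 4 of which are on X. The number of neighbours in other sets of unnamed genes of this size was not computed, so this count is a description. The longest run was that of F53A9.1, F53A9.6, F53A9.7 and F53A9.8, which together are 4 of the 6 unnamed genes of this clone. Each has a single exon and a gene model between 417 and 466 bases. In the inputs 3 of them had similar inputs and the other was far more abundant. F53A9.1 had 716 and 1035 input counts and 95 and 91 IP counts, at -2.20 ± 0.19. F53A9.6 had 796 and 867 input counts and 113 and 82 IP counts, at -2.09 ± 0.12. F53A9.7 had 481 and 557 input counts and 64 and 34 IP counts, at -2.29 ± 0.48. F53A9.8, given above, had more than 10 times the input counts of F53A9.7 with an enrichment that differed by less than the SD of F53A9.7.

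The genes on both sides of this run had low values too. On 1 side kreg-1 had enrichments of -1.68 and -2.31, under the thresholds but outside the set because it has a name. On the other side F53A9.9 was at -1.43 and -1.82, outside because of replicate 1. The labels and methods do not say how reads that match several genes were counted, so the values of short neighbouring genes of the same clone may not be independent of each other.

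The 3 closest groups of neighbours were those of clones C29F7, B0272 and F22H10, all on X. C29F7.2 had 2909 and 2767 input counts and 622 and 389 IP counts, at -1.99 ± 0.06. Its neighbour C29F7.3, on the opposite strand, had 3149 and 3820 input counts and 976 and 783 IP counts, at -1.60 ± 0.09. The labels call the sequencing stranded, but do not say whether strand was used in counting. The flanking genes C29F7.1 (-0.96 and -0.70) and fkh-3 (-0.03 and 0.21) were above the threshold in both replicates.

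B0272.3 had 3072 and 3124 input counts and 530 and 377 IP counts, and its enrichment was -2.25 in each replicate, the smallest difference between replicates in the set. B0272.4 had 864 and 716 input counts and 110 and 76 IP counts, at -2.07 ± 0.15. Their flanking genes fln-2 (-0.84 and -0.40) and tbb-4 (-1.81 and -0.84) did not meet the thresholds. F22H10.3 and F22H10.2, both among the 12 lowest, lie on opposite strands, and tag-343 beside them was at 0.52 and 0.56. The fifth run, C10C5.3 and C10C5.4 on chromosome IV, was at -1.73 ± 0.08 and -1.80 ± 0.01, between fbxc-58 (-1.78 and -1.95) and C10C5.5 (-1.09 and -0.92). Among the flanking genes measured, 1 met the thresholds in each of 2 of the 5 runs and none in the other 3.

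**Figure D5:**
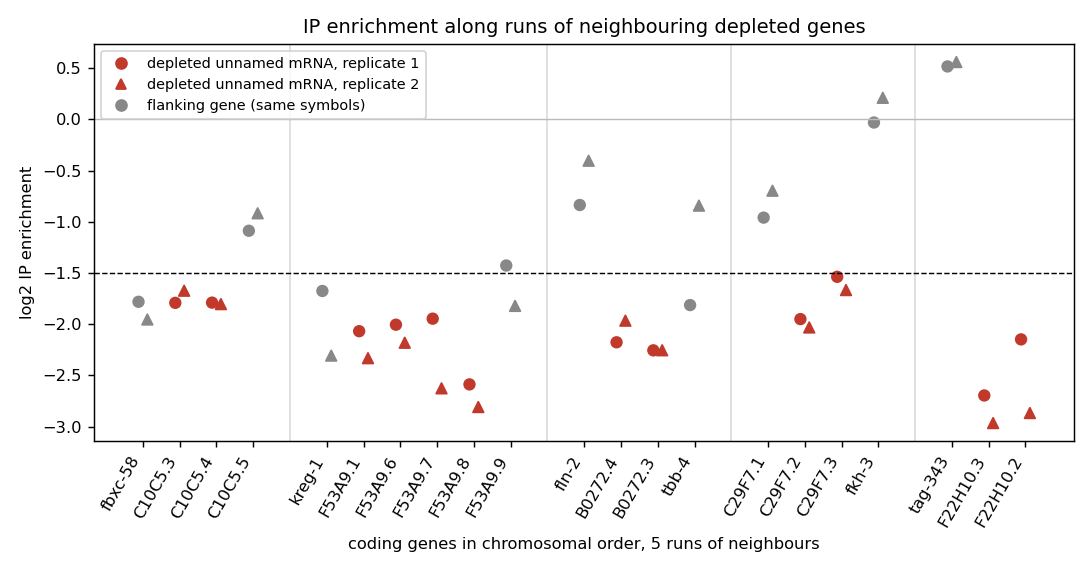
Log2 IP enrichment along the 5 runs of neighbouring members (red) and their flanking genes (grey), in chromosomal order and not to scale, with circles for replicate 1, triangles for replicate 2 and a dashed line at -1.5. Depletion continues into kreg-1 and fbxc-58, whereas fkh-3 and tag-343 lie near or above 0.

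Markers of worm tissues and some gene families were read in the same libraries, to place the depletion of the 167. Their calls come from edgeR with TMM scaling, and medians are given of the quantile-normalized enrichment and then of edgeR's log2 fold change. Body wall muscle genes had medians of -2.17 and -1.67, with 13 of 14 called depleted and 9 under the thresholds, and intestinal genes medians of -1.03 and -0.81, with 22 of 25 called depleted and 8 under the thresholds. Germline and oocyte genes had medians of 0.54 and 1.28, with 19 of 25 called enriched and 4 called depleted (edgeR's quasi-likelihood test, adjusted over all 14029 genes). The germline and oocyte list held 1.399% and 1.48% of the input counts and 10.4% and 12.03% of the IP counts. Of the sperm genes 10 of 13 were called depleted (medians -0.84 and -1.25). Of the genes of the coelomocytes, spermatheca or uterus 8 of 10 were (-0.63 and -0.87). With TMM both of these lists had a lower median than the intestinal genes. Calls were fewer for 5 of 8 pharyngeal genes (-0.53 and -0.65) and 6 of 16 neuronal genes (-0.14 and -0.21). Of the hypodermal and cuticle genes 3 of 11 were called depleted (-0.13 and -0.22), or 27.3%, which is above the 16% of the germline and oocyte list. Over all genes tested 35.4% were called depleted. Which tissues express the 167 is not annotated in the sources used here, and the part of tissue in their depletion was not tested.

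Among the gene families, 32 of 39 glutathione S-transferases were called depleted, with medians of -1.12 and -1.52 in the same order, and 12 were under the thresholds. Of the translation elongation factors 4 of 6 were called depleted (medians -1.58 and -0.87), and of the vacuolar ATPase subunits 10 of 20 were depleted and 8 enriched (medians -0.82 and -0.16). Cuticle collagens differed, with 5 of 89 called depleted and 33 enriched (medians 0.20 and 0.32). Cytochrome P450 genes had 18 of 53 depleted and 11 enriched, UDP-glucuronosyltransferases 26 of 55 and 6, and C-type lectins 28 of 89 and 11, with medians of 0.02, -0.08 and -0.00 after quantile normalization and of -0.27, -0.43 and -0.20 with TMM, so that the sign of the P450 median depends on the scaling. None of these 3 families or of the collagens had a gene under the thresholds. Against the 35.4% of all genes tested that were called depleted, the shares of lectins and P450 genes were near the background.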

How the data were processed

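The authors deposited read counts per gene, without normalization and with the length of each gene model, and log2 values made from them; genes were quantified on assembly ce10 with WormBase WS220 models, with the aligner and counter not given in the sources used here. Deposited log2 values were scaled to library size, transformed after adding 8 and quantile-normalized. Rebuilding them from the counts gave all 81568 values within 1e-06. Symbols were taken by gene identifier from a separate list of gene names, or from Ensembl release 115 where that list had none. Chromosomes, coding and untranslated lengths came from Ensembl release 115 by gene identifier (19870 of 20392 genes, 19182 with a symbol). That assembly, WBcel235, is later than ce10, so no coordinates are given, and no sequences were used here. RPKM used the deposited length and the library total.

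Depletion was called with edgeR 4.0.16 (R 4.3.3), quasi-likelihood test, TMM, filterByExpr and the replicate as a block, with Benjamini-Hochberg adjustment over 14029 genes at 0.05. Replicate numbers pair each IP with its input, as the study's methods subtract each input from its own IP, and the replicate differences of IP and input correlated at r = 0.286 across genes. With 1 residual degree of freedom edgeR pooled the spread over all genes. The fits were tested on simulated data. Python 3.11.15 and pandas 2.3.3 were used for the rest.

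The set, the lists of genes and the alternatives were chosen with earlier results of these data known. Genes named are the 12 lowest, the 6 of highest input, the 3 on each side of the threshold, the 3 of largest replicate difference, the shortest and longest coding sequences and the 3 closest groups of neighbours. The rule also named the lowest genes of each product group. Product names were not used here, and the 11 genes with a RefSeq name were described in their place, a choice made after the values were seen. No gene in the set is non-coding. Genes with an IP at 0, the members of the other runs and K08D12.3 were also chosen after their values were seen.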

Additional observations from a re-analysis of the deposited data

How the results depend on the processing

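The number of unnamed genes under the thresholds depended on how enrichment was computed. Compared with 167, a pseudocount of 1 gave 299 genes and library size only, without quantile normalization, gave 1044, and both included all 167. A pseudocount of 32 gave 124. Thresholds of -1 and -2 gave 492 and 46 genes, and each replicate alone gave 230 to 304. With library size only the median enrichment of the 167 was -2.71 and that of all genes tested -0.91, compared with -1.89 and -0.11. The number of genes called depleted among all tested was 4960, and it was 3294 with DESeq2 1.42.0 and 9333 with library size only. With no replicate block 4333 genes were called, and with 1 library left out and no block 3445 to 3850. All 167 were called in each of these fits, except that a minimum of 10 counts in every library left 156 of them to test, all called. Over 33 named mRNAs and 5 alternatives, 0 of 165 enrichments changed sign and 60 moved by more than the SD between replicates. The alternatives that left out a replicate could do neither. The rule fixes the sign in each replicate, and with n = 2 a single value lies closer to the mean than the SD. All 60 that moved are therefore from the other alternatives, which changed the pseudocount or the scaling. The RefSeq symbols, coding lengths, subsets for chromosome X, shares without Y37E3.8 and rankings, floors and sets with TMM factors were added after the data were seen. Alternatives that need promoter sequence or symbols from the deposited files were not run. With n = 2 an SD is itself imprecise.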

Other observations

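Other features of the 167 genes belonged to no comparison of the report. An annotated 5′-UTR was found for 141 of them, with a median of 19 bases, compared with 35 in other unnamed genes tested, 15 in named genes under the same thresholds and 26 in all coding genes tested. Exons of a gene on the opposite strand overlapped 17.96% of the set (30 of 167), compared with 20.6%, 21.4% and 21.7% in these groups.

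Members that were not direct neighbours also shared clones. F36A2 held 3 (F36A2.3, F36A2.7 and F36A2.10) of its 8 unnamed genes, and 34 of the 167 lay within 3 coding genes of another member. The same counts for other sets of unnamed genes were not computed. Unnamed genes with the opposite pattern, an enrichment of at least 1.5 in both replicates, numbered 394.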
